A study of Mus musculus with 6 samples.

Results

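Cholesterol and fatty acid synthesis genes were followed in splenic regulatory T cells (Treg, which keep other lymphocytes in check) from mice with a conditional knockout of inositol polyphosphate multikinase (IPMK, which phosphorylates inositol phosphates and inositol lipids) and in wild type Treg. The 29 genes were chosen by symbol for their roles in sterol and fatty acid synthesis, in sterol sensing and in sterol transport, storage and export, and each had 1 entry among the 23282 in every count file. The 2 groups were Treg of IPMK conditional knockout mice (IPMK cKO, 3 libraries) and Treg of wild type mice (3 libraries). Both came from spleens of C57BL/6 mice, were sorted by flow cytometry and were not stimulated. The sources used here do not give the age of the mice, the Cre driver, the deleted part of Ipmk or whether replicates were separate animals. The labels call them biological replicates without saying what was replicated, so each p-value measures spread between libraries, part of which may be technical. In bulk RNA, fewer cells of a type and less RNA per cell cannot be told apart.

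Cells build cholesterol from acetyl-CoA through the mevalonate pathway and a chain of sterol-modifying enzymes in the endoplasmic reticulum. When sterols are scarce, SCAP escorts the SREBP transcription factors from the endoplasmic reticulum to the Golgi, where they are cleaved and released to switch on synthesis genes, and when sterols are plentiful the INSIG proteins hold SCAP back. Activated T cells draw on this programme for membranes and for the lipid groups that attach proteins to them, and Treg are known to depend on the mevalonate pathway for their suppressive function.

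Total counts were 8363324 to 8980395 in the IPMK cKO libraries and 7464546 to 8246993 in the wild type libraries. The ribosomal RNA precursor Rn45s took 19.9% to 32.1% of them in IPMK cKO and 16.7% to 31.7% in wild type. Ipmk had 3, 21 and 0 counts in IPMK cKO replicates 1 to 3, against 129, 77 and 99 counts in wild type, and tags from the end of a transcript check a deletion only if it removes them or lowers the transcript. The 7 Treg markers (Foxp3, Il2ra, Ctla4, Ikzf2, Tnfrsf18, Cd4 and Cd3e) were present in every library and summed to 2241 to 2635 CPM (counts scaled to a common library total) in IPMK cKO and 2298 to 3141 CPM in wild type. Foxp3, the transcription factor that defines the lineage, had 84.9, 71.8 and 82.1 CPM in IPMK cKO, against 10.3, 80.4 and 28.9 CPM in wild type, so wild type replicates 1 and 3 were low for it. Whether this bears on the members was not tested. The 15 markers of B, CD8 T, myeloid and natural killer cells summed to 10.2 to 24.5 CPM in IPMK cKO and 21.8 to 30 CPM in wild type, and the highest single value was 14.2 CPM. Of these markers, Pax5, Cd8a, Cd14, Ncr1 and Klrd1 had no count in any library. Others were present. Cd8b1 had 15, 66 and 58 counts in IPMK cKO and 65, 89 and 95 in wild type. Cd79b had 1, 100 and 70 counts in IPMK cKO and 118, 35 and 126 in wild type. Cd79a had 57 counts in IPMK cKO replicate 1, Itgam 62 in IPMK cKO replicate 3 and Klrb1c 66 in wild type replicate 1. The part of the other cells in the results was not tested.

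Of the 29 genes, 27 passed the filter on low counts and were compared between IPMK cKO and wild type. Lss and Scd1 did not pass. By edgeR's quasi-likelihood test, 0 members were higher and 0 were lower at an adjusted p of 0.05, and the share over all 10475 genes tested was 0%. Ipmk, the targeted gene, was not called either (log2 fold change -3.51, SE 1.75, edgeR adjusted p = 0.9999). A gene that was not called is therefore not shown to be unchanged. Every member had an edgeR adjusted p of 0.9999, and 0 members had an unadjusted p under 0.05, against 268 of all genes (2.56%), of which 143 were higher (1.37%) and 125 lower (1.19%) in IPMK cKO. DESeq2 called 3 of the 10412 genes to which it gave an adjusted p (0.0288%), and 0 of them were members. Of the 27 log2 fold changes, 15 were above 0 and 12 below. Their median was 0.09, beside a median of 0.03 over all genes tested.

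The estimates were imprecise. Standard errors of the members' log2 fold changes ran from 0.35 to 1.62, and 0 members had a 95% interval that lay wholly within a 2-fold change in both directions. The upper bound was under a 2-fold increase for 8 members, and the lower bound was above a 2-fold decrease for 9 members. The median coefficient of variation of the members' levels was 54.8% among IPMK cKO libraries and 36.9% among wild type libraries, close to the medians over all genes tested (54.7% in IPMK cKO and 34.4% in wild type). Counting error alone, with counts taken as independent, would give medians of 6.36% in IPMK cKO and 6.21% in wild type at the members' counts. Both values lie far below the spread between libraries, and whether counts were independent was not tested. The highest library was more than 4 times the lowest for 15 of the 27 members, and the least variable member in this sense, Fasn, still differed 1.90-fold.

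**Figure D1:**
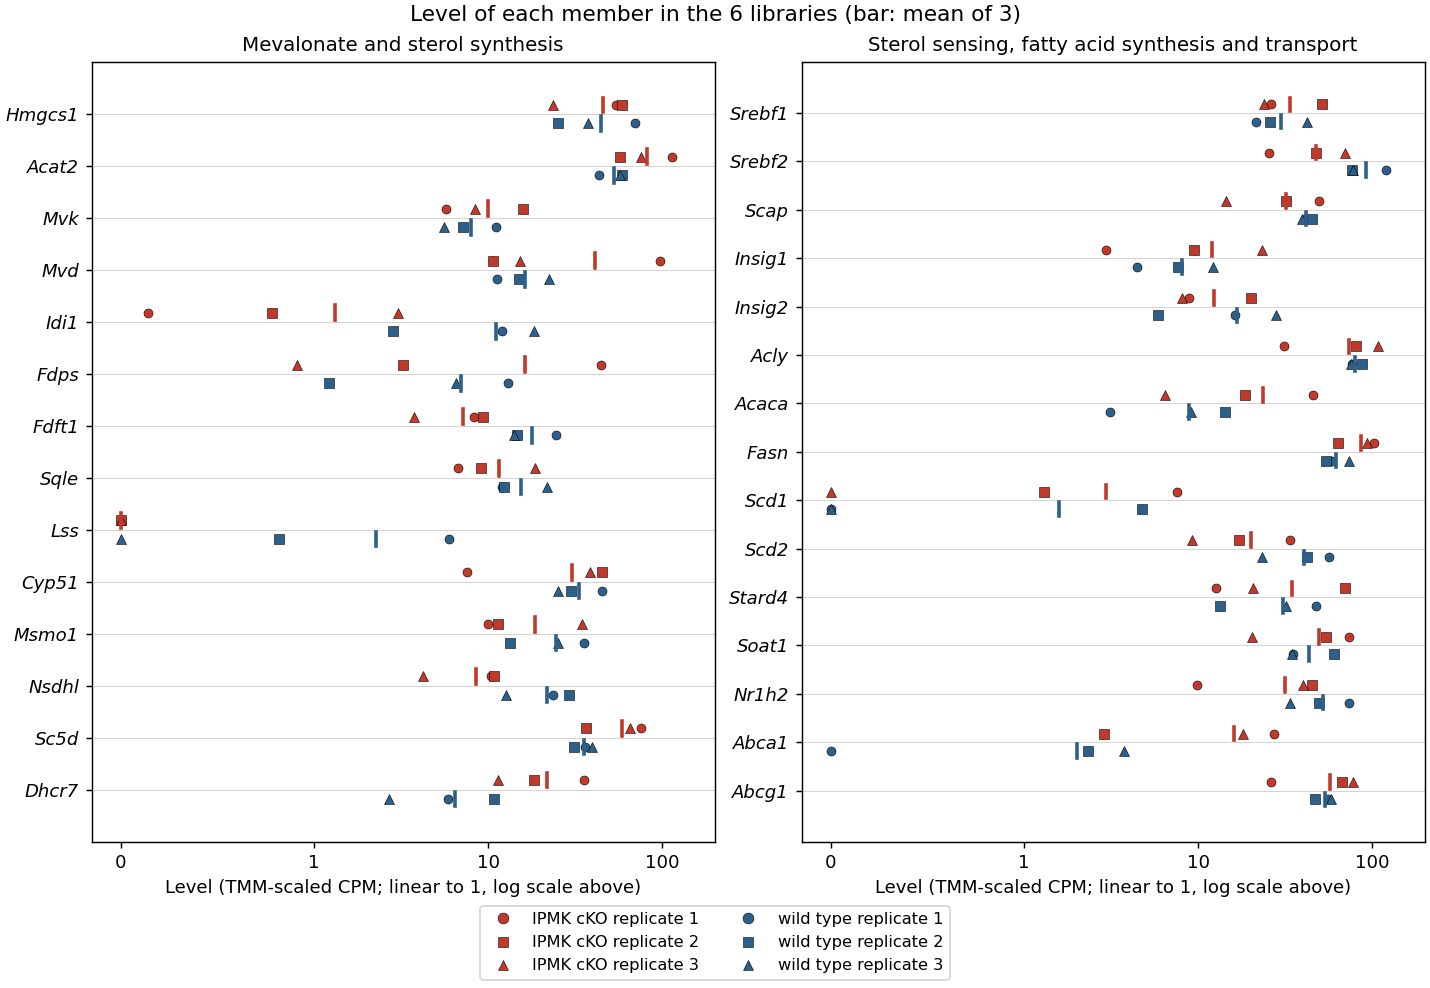
Level of each of the 29 genes (TMM-scaled CPM, horizontal axis, linear up to 1 and logarithmic above) in each of the 6 libraries, with IPMK cKO in red above wild type in blue and a bar at the mean of 3. The groups separate without overlap for Srebf2, Fdft1 and Nsdhl, lower in IPMK cKO, and for Dhcr7, higher in IPMK cKO.

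For 4 of the 27 members (14.8%) every IPMK cKO library lay on one side of every wild type library, beside 10.4% of all genes tested. Srebf2, Fdft1 and Nsdhl lay lower in IPMK cKO (5.66% of all genes did so) and Dhcr7 lay higher (4.74% of all genes). With 3 libraries against 3, an exact two-sided permutation test of a single gene cannot give a p below 0.1, the value that each of these 4 has. Leaving out 1 library makes such separation easier. The count was then 4 to 9 members, highest without wild type replicate 3, where 16.6% of all genes separated, and it was 7 without IPMK cKO replicate 1, where 19.8% did.

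IPMK cKO replicate 1 stood apart more often than the other libraries. It held the highest level of 10 members and the lowest level of 10 others (37.0% each), and over all genes tested it held the highest level of 29.2% and the lowest of 31.8% of those with a single lowest library. Wild type replicate 1 held the highest level of 7 members and IPMK cKO replicate 3 the lowest of 7. Where that library moved the estimate of a member strongly, the value without it is given below.

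**Figure D2:**
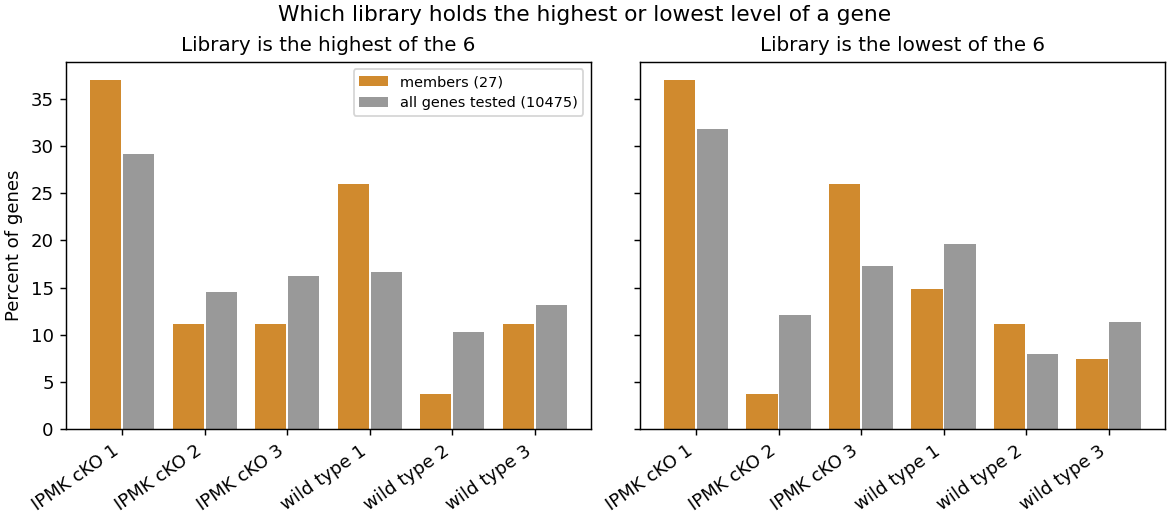
Percent of genes (vertical axis) for which each library (horizontal axis) held the highest level, left, or the lowest level, right, among the 6 libraries, for the 27 tested members in orange and all genes tested in grey (10475 in the left panel and, in the right panel, the 9543 with a single lowest library). IPMK cKO replicate 1 has the tallest bars in both panels, 37.0% for the members in each.

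Among the sensors and regulators, Srebf2 encodes SREBP2, the transcription factor that drives most cholesterol synthesis genes. It had 25.5, 47.4 and 70.0 CPM in IPMK cKO replicates 1 to 3, against 121, 77.0 and 77.9 CPM in wild type. All IPMK cKO libraries lay below all wild type libraries, though IPMK cKO replicate 3 came close. The means were 47.7 ± 22.2 CPM in IPMK cKO and 91.9 ± 25.1 CPM in wild type (SD, n = 3 each). Its log2 fold change was -0.95 (SE 0.43, 95% interval -1.89 to 0.0021, edgeR adjusted p = 0.9999), and it was the member with the smallest unadjusted p, 0.0504. Leaving out each library in turn gave -1.33 to -0.65. The gene lies at chr15:82147181-82205379 of mm10, plus strand.

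Srebf1 encodes SREBP1, which drives fatty acid synthesis genes. Its levels were 26.1, 51.2 and 24.0 CPM in IPMK cKO and 21.5, 25.9 and 42.4 CPM in wild type, so the groups overlapped and 1 library stood above the others in each. The log2 fold change of 0.17 (SE 0.54) lay within 1 SE of 0. The last bases of Srebf1 share 109 exonic bases with Rai1 on the opposite strand, and without a stated strand setting, tags from the 2 genes there cannot be told apart.

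Scap, the escort of SREBP, had 49.4, 32.2 and 14.5 CPM in IPMK cKO, against a narrow 41.0, 45.2 and 39.4 CPM in wild type. The wild type range fell inside the wider IPMK cKO range (log2 fold change -0.39, SE 0.52). Leaving out IPMK cKO replicate 1 gave -0.85, and leaving out replicate 3 of that genotype gave -0.040. Scap shares 985 exonic bases with 5830462I19Rik on the opposite strand. Insig1, a retention factor that SREBP itself induces, had 2.95, 9.51 and 23.4 CPM in IPMK cKO and 4.44, 7.63 and 12.1 CPM in wild type. The IPMK cKO range enclosed the wild type range (log2 fold change 0.57, SE 1.08), with 1.02 when IPMK cKO replicate 1 was left out and -0.37 when replicate 3 of that genotype was. Insig2, the related retention factor, had 8.84, 20.2 and 8.10 CPM in IPMK cKO and 16.2, 5.86 and 27.9 CPM in wild type. Its groups also overlapped (-0.43, SE 0.85).

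Summed over these 5 genes, the level was 113, 161 and 140 CPM in IPMK cKO and 204, 162 and 199.8 CPM in wild type. The groups touched without overlapping, IPMK cKO replicate 2 being just under wild type replicate 2. Without Srebf2, left out after its values were seen, the sum was 87.3, 113 and 69.9 CPM in IPMK cKO and 83.2, 84.6 and 122 CPM in wild type, and the groups overlapped. With it, the means were 138 ± 23.9 CPM in IPMK cKO and 188 ± 23.3 CPM in wild type (SD, n = 3 each).

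SREBP binds sterol regulatory elements in promoters, usually beside sites of NF-Y (CCAAT) or Sp1 (GGGCGG). RefSeq windows of 250 bases before to 50 after the start (GRCm38.p6) were at hand for 22 of the 29 genes. No window matched Fdps, Fdft1, Sqle, Scd1, Scd2, Stard4 or Abcg1. On either strand, CCAAT stood in at least 1 window of 17 of the 22 genes (77.3%), against 42.3% of 17492 protein-coding genes. GGGCGG stood in 19 (86.4%), against 49.2%, and 16 genes held both. The E-box CACGTG stood in 5 (22.7%), against 8.91%. CACCCCAC, a core of the sterol element, stood in Hmgcs1 and Acat2 (9.09%), against 3.33%. TCACNCCAC, another form of the element that can overlap it, stood in Hmgcs1 alone (4.55%), against 1.41%. The 17492 genes were not limited to those with counts in these libraries, and the difference in shares was not tested. A match describes letters only and not a bound site. Only these exact letters were searched (N being any base), so a gene without a match may hold another form of the element. Of the members with separated groups, the CCAAT letters were present in at least 1 window of all 3 that had one. These lay lower (Srebf2 and Nsdhl) or higher (Dhcr7) in IPMK cKO. Of the 3 windows of Dhcr7, only 1 held the letters before its start.

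The 250 bases before the start are shown 5′ to 3′ for these 3 genes and for Hmgcs1, the member whose window holds both forms of the sterol element. Capitals mark CCAAT on either strand (ATTGG is its reverse complement) and, in Hmgcs1, the sterol element. All 4 lie on the plus strand. They are chr15:82147019-82147268 for Srebf2, chrX:72918271-72918520 for Nsdhl, chr7:143829964-143830213 for Dhcr7 and chr13:119690101-119690350 for Hmgcs1. Dhcr7 has 3 windows, and the one shown was picked because it alone holds CCAAT before its start. That window lies inside the Dhcr7 gene, which begins at 143823145. Counted from the RefSeq start, the CCAAT match in Srebf2 ends at position -131, and the sterol element in Hmgcs1 spans positions -137 to -129. For Srebf2 this start lies downstream of the gene start at 82147181, so the last bases shown lie inside the gene.
Srebf2: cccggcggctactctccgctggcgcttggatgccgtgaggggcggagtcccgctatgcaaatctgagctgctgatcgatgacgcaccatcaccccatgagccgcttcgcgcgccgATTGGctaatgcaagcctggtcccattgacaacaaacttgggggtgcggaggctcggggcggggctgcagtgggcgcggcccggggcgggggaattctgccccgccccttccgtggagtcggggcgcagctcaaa
Nsdhl: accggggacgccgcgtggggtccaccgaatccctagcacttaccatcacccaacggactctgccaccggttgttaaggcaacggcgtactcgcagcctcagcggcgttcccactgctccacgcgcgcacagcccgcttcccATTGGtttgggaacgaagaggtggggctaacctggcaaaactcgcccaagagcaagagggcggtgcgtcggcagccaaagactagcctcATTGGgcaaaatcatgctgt
Dhcr7: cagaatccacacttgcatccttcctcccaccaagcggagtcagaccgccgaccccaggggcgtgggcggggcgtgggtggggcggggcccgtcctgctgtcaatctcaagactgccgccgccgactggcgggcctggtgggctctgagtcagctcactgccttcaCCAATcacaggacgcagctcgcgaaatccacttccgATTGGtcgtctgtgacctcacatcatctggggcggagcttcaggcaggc
Hmgcs1: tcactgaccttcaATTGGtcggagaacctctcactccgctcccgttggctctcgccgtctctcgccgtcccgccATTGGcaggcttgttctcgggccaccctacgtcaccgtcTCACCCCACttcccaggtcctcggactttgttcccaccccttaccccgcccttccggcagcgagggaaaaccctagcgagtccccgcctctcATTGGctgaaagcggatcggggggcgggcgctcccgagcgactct

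In the mevalonate pathway, Hmgcs1 makes HMG-CoA, the substrate of the pathway's regulated step. Its levels were 54.2, 59.0 and 23.7 CPM in IPMK cKO and 69.8, 25.3 and 37.7 CPM in wild type, and the means of 45.6 ± 19.2 CPM in IPMK cKO and 44.3 ± 23.0 CPM in wild type (SD, n = 3 each) differed by far less than the spread. An estimate of 0.04 (log2 fold change, SE 0.52, 95% interval -1.11 to 1.19) turned its sign under 6 of the alternatives.

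Acat2, the cytosolic thiolase that feeds the pathway, had 114, 57.5 and 75.6 CPM in IPMK cKO, against 43.4, 58.5 and 57.1 CPM in wild type. IPMK cKO replicate 1 was highest, and the lowest IPMK cKO library lay inside the wild type range (log2 fold change 0.64, SE 0.38). Without IPMK cKO replicate 1 the estimate was 0.32. Part of its last 300 bases matched transcripts of Acat3 and of the chaperonin gene Tcp1 at 97.4% over 153 bases. Tcp1 had 188, 87.3 and 84.9 CPM in IPMK cKO and 89.3, 81.4 and 84.0 CPM in wild type, and IPMK cKO replicate 1 was highest for both genes. The counts of Acat2 are uncertain.

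Mvk, mevalonate kinase, was a low gene with 41 to 122 counts in IPMK cKO and 53 to 93 counts in wild type, and its groups overlapped (log2 fold change 0.32, SE 1.05). Mvd, the decarboxylase that makes isopentenyl diphosphate, had 97.7 CPM in IPMK cKO replicate 1, but 10.7 and 15.2 CPM in replicates 2 and 3, against 11.3, 14.99 and 22.4 CPM in wild type. That 1 library was 4.36-fold above the next highest and decided the estimate. With it the log2 fold change was 1.34 (SE 0.82), and without it -0.33.

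Fdps, farnesyl diphosphate synthase, showed the same imbalance, with 44.8, 3.26 and 0.911 CPM in IPMK cKO and 13.1, 1.23 and 6.54 CPM in wild type. An estimate of 1.23 (log2 fold change, SE 1.39) became -1.74 without IPMK cKO replicate 1. Both genotypes thus spanned more than a 10-fold range for this gene. Its last 300 bases, or in 1 case 123 of them, matched 5 processed pseudogenes at 96.0% to 99.3% identity, and they are identical to part of the overlapping gene Gm43738, so these counts are uncertain too.

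Idi1, the isomerase that makes dimethylallyl diphosphate, had the most negative estimate of the members. It had 1, 6 and 30 counts in IPMK cKO (0.140, 0.782 and 3.04 CPM), against 100, 21 and 176 counts in wild type (12.0, 2.86 and 18.3 CPM). The groups overlapped by a small margin, since IPMK cKO replicate 3 exceeded wild type replicate 2. The means were 1.32 ± 1.52 CPM in IPMK cKO and 11.04 ± 7.74 CPM in wild type (SD, n = 3 each), and the log2 fold change was -3.04 (SE 1.62, 95% interval -6.62 to 0.53, edgeR adjusted p = 0.9999). It stayed between -4.53 and -2.47 when each library in turn was left out. Idi1 also has processed pseudogenes, Gm13502 and Gm35570, that match 284 of its last 300 bases at 98.6% or more.

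Among the sterol enzymes, Fdft1, squalene synthase, takes the first step committed to sterols. Its levels were 8.28, 9.38 and 3.74 CPM in IPMK cKO, all under the 24.5, 14.7 and 14.1 CPM in wild type. The means were 7.14 ± 2.99 CPM in IPMK cKO and 17.8 ± 5.82 CPM in wild type (SD, n = 3 each), with a log2 fold change of -1.32 (SE 0.86, edgeR adjusted p = 0.9999) and -1.60 to -1.01 when each library was left out. The gene lies at chr14:63145150-63179578 of mm10, minus strand, and 774 exonic bases up to its annotated 3′ end are shared with the cathepsin B gene Ctsb on the opposite strand. Ctsb had 85.7, 99.5 and 51.7 CPM in IPMK cKO and 86.5, 110 and 101 CPM in wild type, groups that overlapped. The sources used here do not say how tags were divided between the pair, and the level of Fdft1 is uncertain.

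Sqle, squalene epoxidase and a rate-limiting step of sterol synthesis, had 6.74, 9.12 and 18.7 CPM in IPMK cKO and 12.0, 12.4 and 21.7 CPM in wild type. Replicate 3 was the highest of each group and the groups overlapped (log2 fold change -0.41, SE 0.82). The estimate was -0.95 without IPMK cKO replicate 3 and -0.083 without wild type replicate 3, with the other omissions between these values. Lss, lanosterol synthase, which closes the sterol rings, had 0 counts in all 3 IPMK cKO libraries, against 50, 6 and 0 counts in wild type. A floor of 3 counts over the IPMK cKO group makes it at least 18.2-fold lower there, which covers counting error only. Without wild type replicate 1 only 6 counts remained, and wild type replicate 3 was also at 0, so the groups overlapped. An antisense gene, 4930483K19Rik, shares 381 of its exonic bases.

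Cyp51, the lanosterol demethylase, had 7.58, 45.0 and 38.5 CPM in IPMK cKO and 45.2, 29.98 and 25.3 CPM in wild type. IPMK cKO replicate 1 lay far below the other libraries. With that library the log2 fold change was -0.14 (SE 0.65), and without it 0.31. The 3′ end of Cyp51 shares 166 exonic bases with Akap9 on the opposite strand. Akap9 had 282, 469 and 304 CPM in IPMK cKO and 218, 348 and 237 CPM in wild type, far above Cyp51. The level of Cyp51 is uncertain. Msmo1, the methyl sterol oxidase, had 9.96, 11.5 and 34.5 CPM in IPMK cKO and 35.4, 13.4 and 25.1 CPM in wild type, and each group covered nearly the same range (-0.40, SE 0.71). Leaving out IPMK cKO replicate 3 gave -1.199 and leaving out wild type replicate 1 gave -0.044, with the other omissions between these values.

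Nsdhl, the decarboxylating dehydrogenase that acts after Msmo1, had 10.4, 10.8 and 4.25 CPM in IPMK cKO, all under the 23.8, 29.2 and 12.7 CPM in wild type. Its means were 8.48 ± 3.67 CPM in IPMK cKO and 21.9 ± 8.42 CPM in wild type (SD, n = 3 each). The log2 fold change was -1.37 (SE 0.78, 95% interval -3.09 to 0.36, edgeR adjusted p = 0.9999) and ran from -1.64 to -1.04 with each library left out. The margin was narrow, 10.8 CPM in the highest IPMK cKO library against 12.7 CPM in the lowest wild type library. Nsdhl lies at chrX:72918557-72958514 of mm10, plus strand, and no near-identical copy of its 3′ end was found.

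Estimates for the last steps lay above 0. Sc5d, the sterol desaturase, had 75.9, 36.5 and 65.1 CPM in IPMK cKO, against 36.2, 31.2 and 39.3 CPM in wild type, with only IPMK cKO replicate 2 inside the wild type range (log2 fold change 0.73, SE 0.42, 0.51 to 0.96 with each library left out). Dhcr7, the reductase that turns 7-dehydrocholesterol into cholesterol, had 35.5, 18.2 and 11.4 CPM in IPMK cKO, all above the 5.88, 10.8 and 2.70 CPM in wild type. Its means were 21.7 ± 12.4 CPM in IPMK cKO and 6.45 ± 4.06 CPM in wild type (SD, n = 3 each). The log2 fold change was 1.75 (SE 0.88, 95% interval -0.19 to 3.70, edgeR adjusted p = 0.9999), from 1.195 to 2.31 with each library left out. The lowest value was that without IPMK cKO replicate 1. Dhcr7 lies at chr7:143823145-143848410 of mm10, plus strand, and no near-identical copy of its 3′ end was found.

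The enzymes of sterol synthesis therefore had no common direction. Of the 6 mevalonate members, 5 estimates lay above 0 and 1 below, with a median log2 fold change of 0.48. Of the 7 tested sterol members, 2 lay above 0 and 5 below, with a median of -0.40. The mevalonate count rested on IPMK cKO replicate 1. Without it Hmgcs1 (-0.11), Mvd (-0.33) and Fdps (-1.74) fell below 0, where Idi1 stayed (-2.52). Acat2 (0.32) and Mvk (0.59) stayed above 0. Among the sterol members only Cyp51 then turned, to 0.31. The difference between the roles was not tested. The sum over the mevalonate members was 316, 147 and 127 CPM in IPMK cKO and 161, 110 and 148 CPM in wild type. Without Mvd and Fdps, chosen for removal after their values were seen, it was 174, 133 and 111 CPM in IPMK cKO and 136, 93.9 and 119 CPM in wild type. The sum over the 8 sterol members was 154, 140 and 176 CPM in IPMK cKO and 189, 142 and 141 CPM in wild type, with means of 157 CPM in each genotype. In both roles the groups overlapped.

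**Figure D3:**
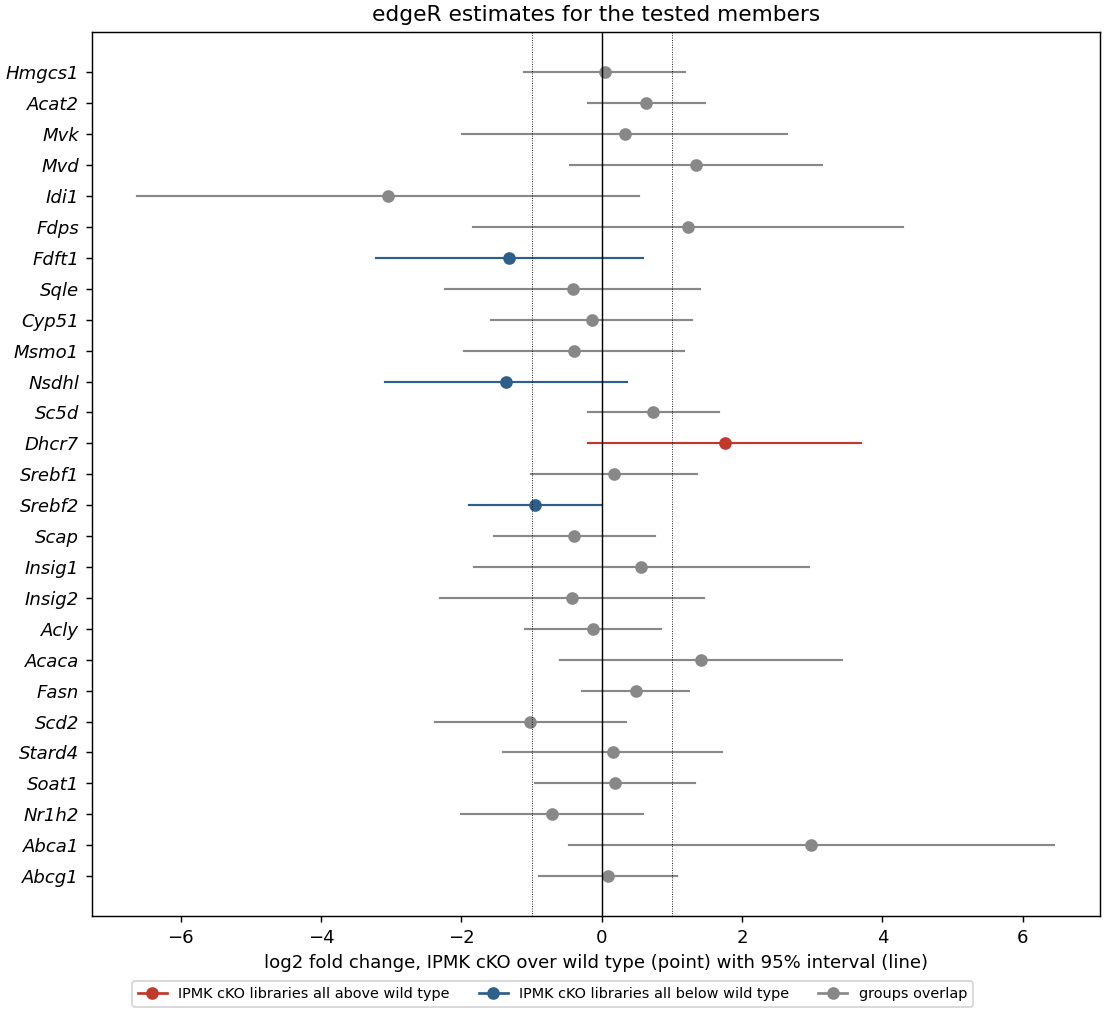
Log2 fold change of IPMK cKO over wild type (horizontal axis, point) with its 95% interval (line) for the 27 tested members (vertical axis), from edgeR. Red marks members with every IPMK cKO library above wild type, blue those with every one below, and grey those that overlap. Dotted lines mark a 2-fold change, and every interval includes 0, that of Srebf2 by the smallest margin.

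Fatty acid synthesis starts with Acly, which makes cytosolic acetyl-CoA from citrate. Acly had 31.2, 80.9 and 108 CPM in IPMK cKO around a tight 76.8, 87.1 and 75.8 CPM in wild type, so that the IPMK cKO libraries lay on both sides of the wild type range. Its log2 fold change was -0.12 (SE 0.44) and was 0.23 without IPMK cKO replicate 1. Acaca, the carboxylase that makes malonyl-CoA, had 45.9, 18.5 and 6.48 CPM in IPMK cKO and 3.12, 14.3 and 9.13 CPM in wild type. The estimate of 1.41 (SE 0.91) came down to 0.49 without IPMK cKO replicate 1. Gm5182, a processed pseudogene, is identical to Acaca over its last 300 bases.

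Fasn, fatty acid synthase, was the steadiest member across libraries. It had 103, 63.6 and 93.8 CPM in IPMK cKO and 58.4, 54.1 and 73.2 CPM in wild type, with IPMK cKO replicate 2 inside the wild type range. The log2 fold change was 0.48 (SE 0.35, 95% interval -0.28 to 1.25), the most precise of the 27, and it ran from 0.34 to 0.64 with each library left out. Scd2, the stearoyl-CoA desaturase that lymphocytes use, had 33.8, 17.2 and 9.21 CPM in IPMK cKO and 56.5, 42.4 and 23.1 CPM in wild type. Only the top IPMK cKO library and the bottom wild type library crossed (-1.02, SE 0.62, -1.63 without IPMK cKO replicate 1 and up to -0.67 with the other omissions). Scd1, the related desaturase best known from liver and fat, had 54, 10 and 0 counts in IPMK cKO and 0, 35 and 0 counts in wild type, and was too low to test.

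Over the 5 genes, the sum was 221, 182 and 217 CPM in IPMK cKO and 195, 203 and 181 CPM in wild type. The means of 207 ± 21.8 CPM in IPMK cKO and 193 ± 10.8 CPM in wild type (SD, n = 3 each) differed by less than the SD in IPMK cKO but by more than the SD in wild type, and the groups overlapped.

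**Figure D4:**
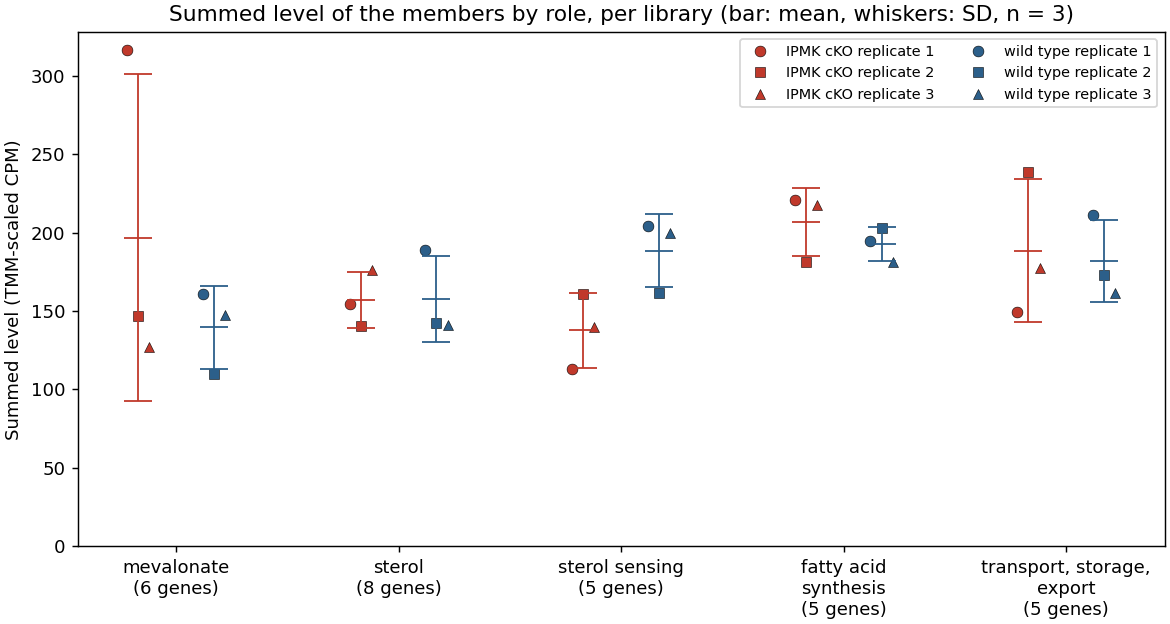
Summed level (TMM-scaled CPM, vertical axis) of the members of each role (horizontal axis) in each library, with IPMK cKO in red left of wild type in blue; the middle line gives the mean and the whiskers the SD of 3 libraries. The sensors are the 1 role whose groups do not overlap, 113 to 161 CPM in IPMK cKO and 162 to 204 CPM in wild type, and the mevalonate sum of IPMK cKO replicate 1 stands at 316 CPM.

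Of the genes of transport, storage and export, Abca1 exports cholesterol to lipoproteins and is a target of the liver X receptors. It had 194, 22 and 180 counts in IPMK cKO (27.2, 2.87 and 18.2 CPM), against 0, 17 and 36 counts in wild type (0, 2.32 and 3.73 CPM). IPMK cKO replicates 1 and 3 were far above every wild type library, while replicate 2 lay among them. A floor of 3 counts, which covers counting error only, corresponds to 0.360 CPM in wild type replicate 1. The means were 16.1 ± 12.3 CPM in IPMK cKO and 2.02 ± 1.89 CPM in wild type (SD, n = 3 each), and the log2 fold change of 2.99 (SE 1.57, 95% interval -0.47 to 6.44, edgeR adjusted p = 0.9999) was the most positive of the members. It ran from 2.38 to 3.78 with each library left out.

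Abcg1 is the partner exporter with the same regulators. It had 26.2, 66.7 and 77.8 CPM in IPMK cKO and 55.8, 47.2 and 57.7 CPM in wild type, with a log2 fold change of 0.09 (SE 0.45). The difference between the estimates of the 2 exporters was not tested. Nr1h2, which encodes the liver X receptor beta, had 9.82, 45.0 and 40.3 CPM in IPMK cKO and 73.2, 49.2 and 33.7 CPM in wild type (-0.71, SE 0.59). Its groups overlapped, and a link between its level and that of Abca1 was not tested. Without IPMK cKO replicate 1 the estimate was -0.30.

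Soat1, which esterifies cholesterol for storage, had 73.7, 54.1 and 20.4 CPM in IPMK cKO and 34.9, 60.6 and 34.5 CPM in wild type (0.19, SE 0.52). Stard4, a carrier of sterols between membranes and itself a target of SREBP2, had 12.6, 69.8 and 20.7 CPM in IPMK cKO and 47.3, 13.4 and 32.1 CPM in wild type (0.15, SE 0.71). In both genes the IPMK cKO range enclosed the wild type range. With IPMK cKO replicate 1 left out, the estimates were -0.23 for Soat1, 0.54 for Stard4 and 0.43 for Abcg1. The sum over the 5 genes was 150, 238 and 178 CPM in IPMK cKO and 211, 173 and 162 CPM in wild type.

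Low counts limited several of these values. Lss and Scd1 failed the filter, Mvk, Idi1 and Abca1 passed it with means under 10 CPM, and 13 of the 29 genes had under 50 counts in at least 1 library. One count was worth 0.101 to 0.140 CPM in IPMK cKO and 0.104 to 0.136 CPM in wild type. Of the 27 tested members, 15 kept their sign when each library in turn was left out.

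A further 55 genes of sterol synthesis, fatty acid synthesis and elongation, sterol handling and fatty acid oxidation gave the wider setting. Of these, 54 were in the files and 48 were tested. By edgeR 0 passed in either direction, 25 estimates lay above 0 and 23 below, and the median log2 fold change was 0.02. The groups did not overlap for 5 of the 48 (10.4%), the same share as over all genes.

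The 6 of these genes with the smallest p are described here. Acaa2, the last enzyme of mitochondrial beta-oxidation, had 67.4, 39.9 and 49.0 CPM in IPMK cKO, all above the 14.3, 25.5 and 28.2 CPM in wild type (log2 fold change 1.1995, SE 0.48, unadjusted p 0.0303, edgeR adjusted p = 0.9999), and it alone of the 48 had an unadjusted p under 0.05. Cpt1a, which gates the entry of fatty acids into mitochondria, had 5.89, 43.4 and 32.8 CPM in IPMK cKO, all below the 49.6, 59.4 and 64.7 CPM in wild type (-1.08, SE 0.63). The next enzyme, Cpt2, had 6.60, 3.13 and 11.8 CPM in IPMK cKO and 27.7, 10.8 and 22.5 CPM in wild type, and its groups overlapped by a small margin (-1.497, SE 0.87). Steps of one pathway thus had estimates of opposite sign.

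Acat1, the mitochondrial thiolase, had 12.6, 52.1 and 32.5 CPM in IPMK cKO and 85.3, 48.1 and 56.5 CPM in wild type (log2 fold change -0.97, SE 0.53). Tecr, the reductase of fatty acid elongation, had 311, 161 and 131 CPM in IPMK cKO and 87.6, 124 and 137 CPM in wild type (0.79, SE 0.37), with IPMK cKO replicate 1 far above the rest. Oxsm, an enzyme of mitochondrial fatty acid synthesis, had 22, 11 and 4 counts in IPMK cKO, all below the 164, 46 and 56 counts in wild type (-2.68, SE 1.504). None of the 6 was called by edgeR.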

How the data were processed

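Sorted splenic Treg gave total RNA by Trizol, from which Lexogen QuantSeq libraries were made, per the labels. This kit reads tags near the 3′ ends of transcripts. Values deposited by the authors are raw counts, whole numbers listed by gene symbol. The submitters' processing notes name Bowtie2, edgeR, mm10 and hg19 without roles or versions. Counting program, strand setting and annotation are unstated in the labels.

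The quasi-likelihood test of edgeR 4.0.16 (R 4.3.3) was run on the counts, with TMM scaling, filterByExpr (minimum 10 counts) and Benjamini-Hochberg adjustment over the 10475 genes tested, and the procedure was tested on simulated counts. The SE is the estimate over the square root of F, and 95% intervals use the moderated degrees of freedom. Levels are CPM on the TMM-scaled totals, not divided by length, since tags mark ends. The depth was 7464546 to 8980395 counts per library. Shared exon bases came from GENCODE M21, and near-identical copies from blastn of the last 300 bases of each member transcript (95% identity over at least 100 bases). Promoter windows came from RefSeq. Alternatives were DESeq2 1.42.0, limma-voom (limma 3.58.1), other size factors and filters, the replicate number as a block and leaving out libraries. The members, lists and tests were chosen with earlier results of these data known, and all members are named. By the rule, members with a mean under 10 CPM are given by ranges and counts; Idi1, Abca1, Lss and Scd1 are given in full, a choice made after their values were seen. Of the other pathway genes, the 6 with the smallest p are named. Some genes of the pathway are not reported here.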

Additional observations from a re-analysis of the deposited data

How the results depend on the processing

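In every alternative run, 0 members were called. Of the 27 tested members, 13 kept their sign in each alternative that tested them, among them Srebf2, Fdft1, Nsdhl, Dhcr7, Idi1, Fasn, Scd2 and Abca1. Under the stricter filter on low counts 26 members were tested, Idi1 not among them. Over all genes, DESeq2 called 3 genes, against 0 by edgeR, where 268 had an unadjusted p under 0.05. Leaving out each library gave 0 to 1 called genes, and leaving out both libraries numbered 1, an alternative chosen after seeing the data, gave 1. The members' median log2 fold change was -0.10 with limma-voom and -0.038 with the replicate number as a block, and it ran from -0.22 to 0.12 with each library left out. Separated members numbered 4 to 9 with each library left out (16.6% to 24.9% of all genes) and 9, or 33.3%, without both libraries numbered 1, where 31.7% of all genes separated. The labels do not say whether the replicate number marks a pairing, so the main test used none. Same-numbered libraries correlated at 0.045, 0.088 and 0.027 in their deviations from the group means, and pairs with unlike numbers at -0.061 to -0.0011. Each library thus correlated best with its own number, but all values were small. The 3 deviations of a gene within a group sum to 0, so these correlations depend on each other and cannot show a pairing. Whether the libraries were paired was not tested. With the replicate number as a block 0 genes were called.

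Signs turned for 14 of the 27 members, among them Mvd and Fdps, whose estimates were 1.34 and 1.23 with all libraries. With upper-quartile factors Hmgcs1 was -0.013. With limma-voom the values were Hmgcs1 -0.017, Fdps -0.27, Stard4 -0.10, Soat1 -0.0049 and Abcg1 -0.0080. With the replicate block they were Stard4 -0.15 and Abcg1 -0.038. Without both libraries numbered 1 they were Mvd -0.53, Fdps -0.90, Cyp51 0.59, Msmo1 0.26, Acly 0.21, Soat1 -0.36 and Nr1h2 0.039. Leaving out each library gave Hmgcs1 -0.25 to 0.53, Mvk -0.20 to 0.64, Mvd -0.33 to 1.75, Fdps -1.74 to 2.06, Cyp51 -0.55 to 0.31, Srebf1 -0.28 to 0.51, Insig1 -0.37 to 1.02, Insig2 -1.003 to 0.17, Acly -0.51 to 0.23, Stard4 -0.91 to 0.60, Soat1 -0.23 to 0.56 and Abcg1 -0.20 to 0.43. The cause was not tested. At this depth the members' median counting error was near 6% if counts were independent, which was not tested.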
